A study of Mus musculus with 6 samples.

Results

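The microRNAs described here are the mature arms cut from 4 kinds of hairpin that lie in introns of metabolic genes: miR-103 (both copies), miR-107, miR-33 and miR-378a. They were taken from the deposited table by hairpin name, which gave 9 of its 1915 mature names: mmu-miR-103-3p, mmu-miR-103-1-5p, mmu-miR-103-2-5p, mmu-miR-107-3p, mmu-miR-107-5p, mmu-miR-33-5p, mmu-miR-33-3p, mmu-miR-378a-3p and mmu-miR-378a-5p (mmu stands for mouse and is left out of most names below). Small RNA was sequenced from iBN cells, a mouse suspension line labelled as granulocyte-macrophage progenitor cells in which PU.1, a transcription factor that directs myeloid differentiation, can be switched on. Induced cells were kept in doxycycline at 1000 ng/ml for 72 hours (n = 3 libraries), uninduced cells were left without it (n = 3 libraries), and each group holds trials 1, 2 and 3. All 6 libraries came from cells with the inducible gene grown in GM-CSF at 1 ng/ml with 10% fetal bovine serum. Effects of PU.1 and of doxycycline itself cannot be told apart, since every library analysed here is from cells that carry the inducible system. The sources used here do not give its promoter or say whether the line is 1 clone.

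The libraries held 8697384 to 13946613 reads with 1 entry kept per mature name, so that a count of 0 in a library allowed a level of up to 0.215 to 0.345 CPM (reads scaled to library size). Whether each trial was its own culture is not stated in the labels, so the p-values cover the spread among the 6 libraries and nothing wider, and that spread may be technical. As a check of the labelled cell type, the 6 blood microRNAs of a marker list summed to between 74271 and 91865 CPM in induced libraries and between 71755 and 90760 CPM in uninduced ones. The 2 arms of miR-142a made up most of this sum. miR-150-5p averaged 34.1 CPM over the 6 libraries and miR-146a-5p 5.49 CPM. Lists for other tissues were not all at 0. The liver list summed to between 13058 and 15674 CPM in induced and between 16670 and 18366 CPM in uninduced libraries, although its defining microRNA, miR-122-5p, had 5 reads in all. The stromal list summed to between 145 and 215 CPM in induced and between 230 and 270.0 CPM in uninduced libraries. The epithelial list summed to between 81.1 and 101 CPM in induced and between 32.2 and 39.8 CPM in uninduced libraries, and the erythroid list to between 37.5 and 40.2 CPM in induced and between 22.9 and 36.5 CPM in uninduced ones. The neural list overlapped, with 354 to 395 CPM in induced and 362 to 432 CPM in uninduced libraries. In the neural, stromal and erythroid lists miR-124-3p, miR-214-3p and miR-144-3p had 0 reads. In the same lists miR-128-3p had 21479 reads in all, miR-143-3p 9807 and miR-486a-5p 2221. The liver, stromal, epithelial and erythroid sums did not overlap between the groups, and their part in the values below was not tested.

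MicroRNAs pair through their seed, bases 2 to 8, with messenger RNAs and lower their output. miR-103 and miR-107 lie in the pantothenate kinase genes, whose enzymes catalyse the first step of coenzyme A synthesis, and in mouse liver and fat they are known to reduce insulin sensitivity. miR-33 lies in Srebf2, which encodes the activator of cholesterol synthesis, and it restrains the cholesterol exporter Abca1, for which it is well studied in macrophages. miR-378a lies in Ppargc1b, which encodes a coactivator of mitochondrial genes, and is known from mouse muscle and fat as a regulator of energy use.

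The mature sequences are shown because they set what the counts can tell apart. Sequences from RefSeq (GRCm38.p6, the assembly of mm10) were used for 7 of the 9 arms and for neither arm of miR-378a. The seed is in capitals in each line.
miR-103-3p: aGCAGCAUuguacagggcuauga
miR-107-3p: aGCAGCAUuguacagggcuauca
miR-103-1-5p: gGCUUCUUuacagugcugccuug
miR-103-2-5p: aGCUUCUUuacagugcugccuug
miR-107-5p: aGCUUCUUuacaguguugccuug
miR-33-5p: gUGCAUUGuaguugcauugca
miR-33-3p: cAAUGUUUccacagugcaucac

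miR-103-3p and miR-107-3p share their seed and differ by 1 substitution in 23 bases, G22C (the miR-103-3p base first, counted from 1 at the 5′ end). A read that ends before base 22 therefore matches both, and the sources used here do not say how such reads were assigned. The 5p arms are as close. miR-103-1-5p and miR-103-2-5p differ by G1A, and miR-103-2-5p and miR-107-5p by C16U. Seeds were compared among the 1679 mouse mature names whose sequences were used, which is not every name counted. Among these, the seed GCAGCAU belonged to miR-103-3p and miR-107-3p, and the seed GCUUCUU to the 5p arms of the same hairpins. UGCAUUG belonged to miR-33-5p alone and AAUGUUU to miR-33-3p alone.

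The hairpins show where each arm sits, with the arms in capitals. Each lies on the strand of its host gene.
Mir103-1, chr11:35782396-35782481, plus strand, in intron 5 of Pank3: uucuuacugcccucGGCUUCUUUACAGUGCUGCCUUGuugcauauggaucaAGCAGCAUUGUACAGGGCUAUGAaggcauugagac
Mir103-2, chr2:131288052-131288137, plus strand, in intron 5 of Pank2: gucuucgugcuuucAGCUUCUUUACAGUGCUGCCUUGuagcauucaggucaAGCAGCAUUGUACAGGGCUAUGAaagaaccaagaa
Mir107, chr19:34820687-34820773, minus strand, in intron 5 of Pank1: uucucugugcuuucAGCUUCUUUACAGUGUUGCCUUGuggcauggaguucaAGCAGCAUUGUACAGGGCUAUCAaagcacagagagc
Mir33, chr15:82198122-82198190, plus strand, in intron 16 of Srebf2: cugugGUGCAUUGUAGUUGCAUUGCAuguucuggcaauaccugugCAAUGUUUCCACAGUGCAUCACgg

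The pantothenate kinase hairpins thus sat in the same intron number of their 3 hosts, counted in the CCDS transcripts of GENCODE. miR-378a lies in intron 1 of Ppargc1b in that annotation. The 3p arms of Mir103-1 and Mir103-2 are identical, and the table's 2 entries for miR-103-3p differed by 4 to 37 reads, at most 0.0964% of the larger entry. They were counted as 1 measurement, and the reads of miR-103-3p cannot be assigned to Pank3 or Pank2.

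miR-378a-3p was the ninth most abundant of all 1915 names and held 3.37% of the reads. It was followed by miR-103-3p (rank 38), miR-107-3p (rank 71), miR-378a-5p (rank 120), miR-33-5p (rank 269), miR-33-3p (rank 354), miR-107-5p (rank 422), miR-103-2-5p (rank 506) and miR-103-1-5p (rank 694). The ranges over the 6 libraries did not overlap between neighbours in this order from miR-378a-3p down to miR-107-5p. miR-107-5p overlapped with miR-103-2-5p, and miR-103-2-5p with miR-103-1-5p. These are read shares, unadjusted for how readily each sequence is captured in a small RNA library, and the arms are of nearly equal length (21 to 23 bases where a sequence was at hand).

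**Figure D1:**
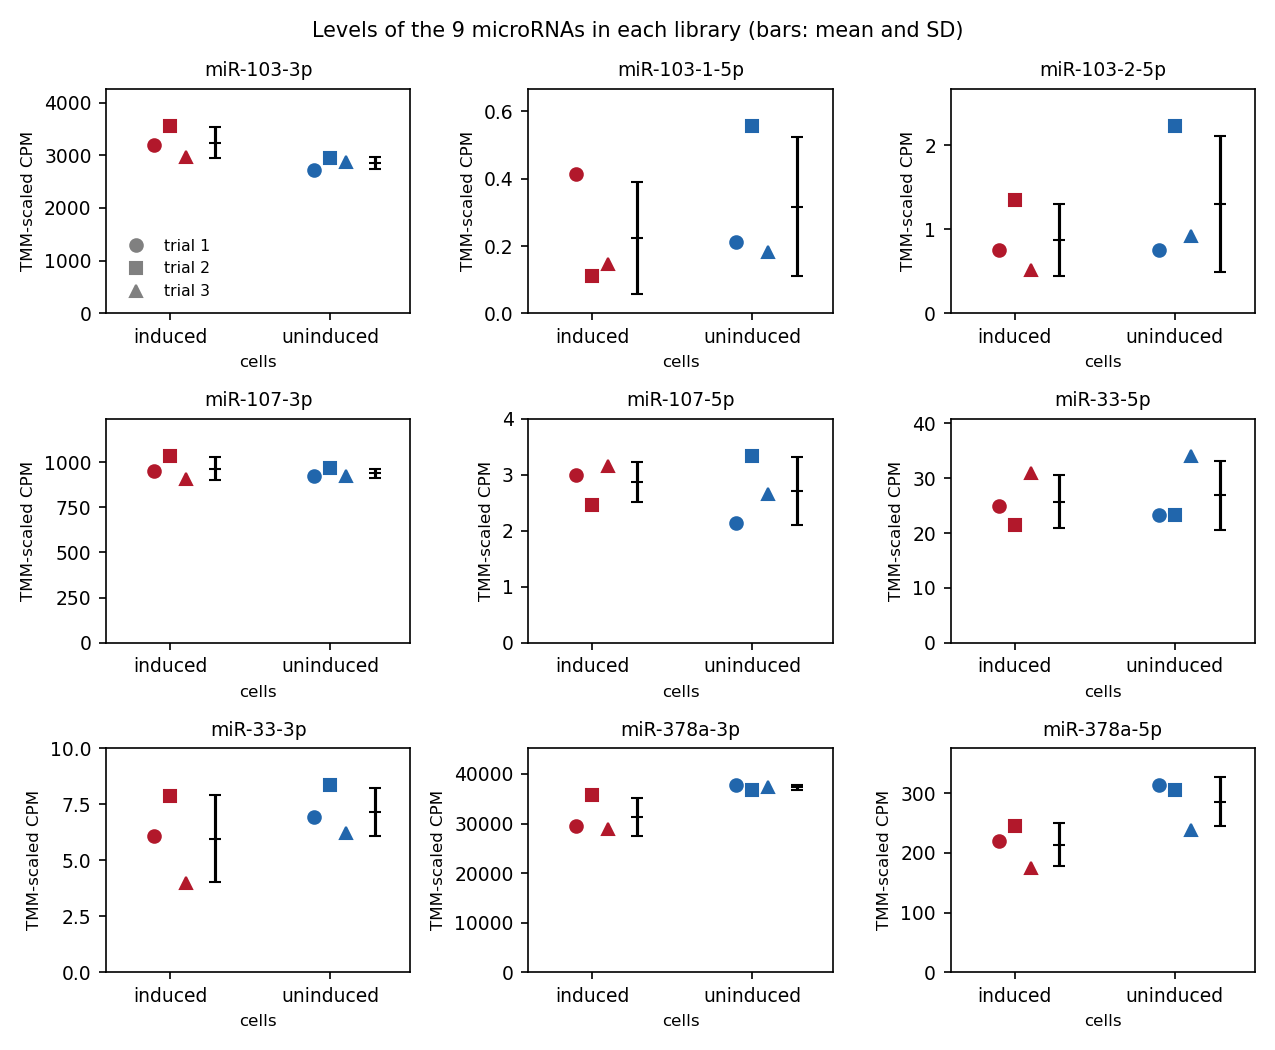
TMM-scaled CPM of each of the 9 arms (vertical axes, each starting at 0) in the induced (red) and uninduced (blue) libraries, with a symbol for each trial and the mean and SD beside the points. miR-378a-3p was between 28885 and 35685 CPM in the induced libraries and between 36787 and 37691 CPM in the uninduced ones, while miR-107-3p and miR-33-5p overlapped between the groups.

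Induction of PU.1 was compared with no induction across the whole table, and none of the 7 arms abundant enough to be tested passed. The arms of miR-378a lay lower in induced cells and miR-103-3p slightly higher, by less than the test could separate from the spread between libraries. The quasi-likelihood test of edgeR, adjusted by Benjamini-Hochberg, called 0 of the 7 arms and 32 of the 525 names tested (6.10%, with 3.43% higher and 2.67% lower in induced cells). DESeq2 called 0 of the 7 and 7.05% of names (3.62% higher, 3.43% lower). limma-voom called 0 of the 7 and 3.81% of names (2.29% higher, 1.52% lower). Before adjustment, 2 of the 7 had an edgeR p under 0.05, both arms of miR-378a and both lower, against 20.8% of all names and 9.33% in the lower direction. In TMM-scaled CPM the groups did not overlap for 2 of the 7, against 27.6% of all names. miR-103-3p was higher, like 16.0% of names, and miR-378a-3p lower, like 11.6%. Over plain totals of the reads kept, the groups overlapped for both arms. The change had the same direction in all 3 trials for 4 of the 7, against 58.5% of all tested. The counts of arms without overlap and with 1 direction are near the shares of all microRNAs. With the trial as a block, 1 of the 7 arms was called, miR-378a-5p, which was lower, against 21.7% of names (10.7% higher, 11.0% lower).

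**Figure D2:**
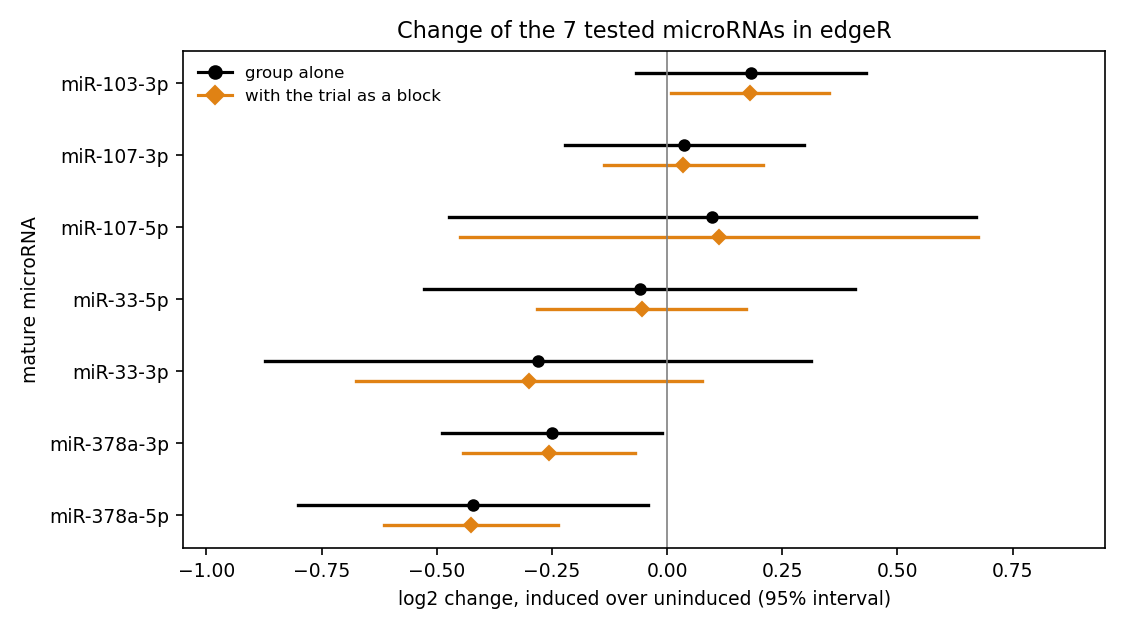
Log2 change of induced over uninduced libraries (horizontal axis) for the 7 tested arms, with 95% intervals from edgeR, for the group alone (black circles) and with the trial as a block (orange diamonds). With the group alone the intervals of both miR-378a arms lie below 0 before adjustment and those of the other 5 arms span it. With the block that of miR-378a-5p runs from -0.61 to -0.24, and this arm alone passed after adjustment. The block intervals of miR-378a-3p (-0.44 to -0.07) and miR-103-3p (0.008 to 0.35) also exclude 0 before adjustment, and those of the remaining arms span it.

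**Figure D3:**
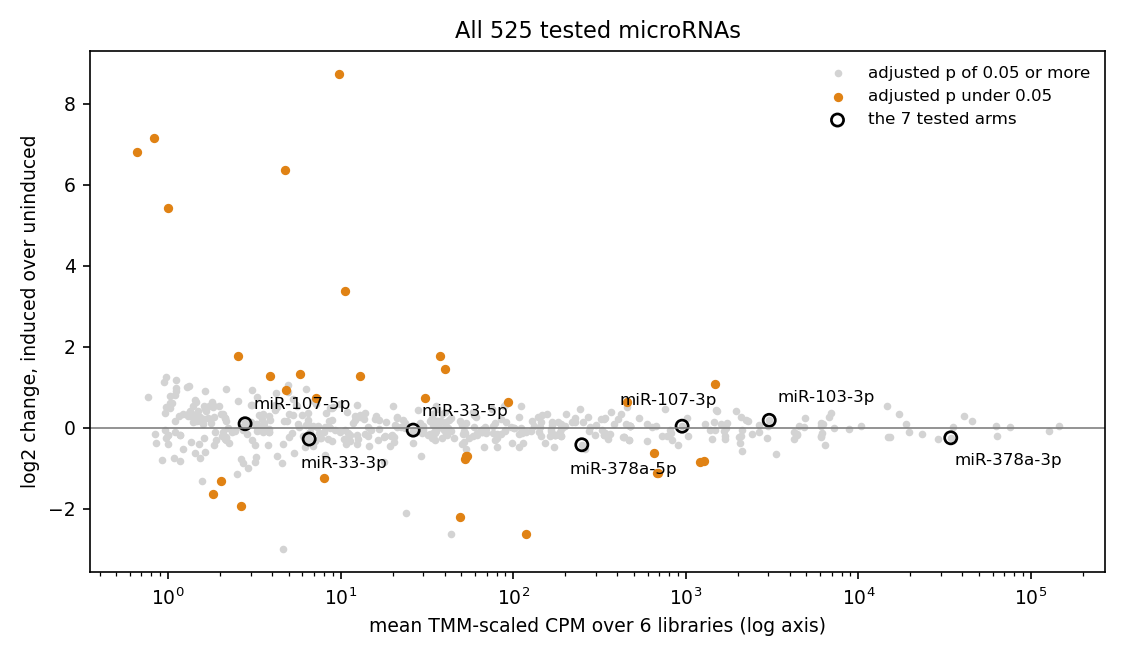
Log2 change of induced over uninduced libraries (vertical axis) against mean TMM-scaled CPM (horizontal axis, log scale) for all tested microRNAs, with the 32 that passed the test in orange and the 7 tested arms circled. The 7 arms lie between -0.42 and 0.18, within the band of microRNAs that did not pass at their level.

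mmu-miR-103-3p had 3187, 3550 and 2969 CPM in the induced libraries of trials 1, 2 and 3, against 2725, 2959 and 2869 CPM in the uninduced ones. In TMM-scaled CPM each induced library lay above every uninduced one. The nearest pair was the induced library of trial 3 and the uninduced library of trial 2. Over plain totals of the reads kept, that pair changed order, so the groups overlapped. The log2 change was 0.18 (SE 0.11, n = 3 per group, edgeR adjusted p = 0.397), with a 95% interval of -0.07 to 0.43. That interval admits anything from a level 0.955 times to 1.35 times that of uninduced cells.

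mmu-miR-107-3p had 953, 1034 and 904 CPM in the induced libraries of trials 1, 2 and 3, against 924, 968 and 925 CPM in the uninduced ones. The groups overlapped, and the induced library of trial 3 was the lowest of the 6. Its log2 change was 0.04 (SE 0.12, edgeR adjusted p = 0.870), with a 95% interval of -0.22 to 0.30. With the reads of miR-103-3p and miR-107-3p added into 1 feature, because of their near-identity, the log2 change was 0.15 (edgeR adjusted p = 0.494).

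The 2 near-identical arms were also set against each other within each library, which needs no scaling between libraries. The induced libraries held 0.299, 0.291 and 0.305 reads of miR-107-3p per read of miR-103-3p in trials 1, 2 and 3, against 0.339, 0.327 and 0.322 in the uninduced ones. All 3 induced libraries lay below all 3 uninduced ones, and below the uninduced library of their own trial. The difference of the log2 ratio was -0.14 (SE 0.03, n = 3 per group). The exact two-sided permutation test gave p = 0.1, the smallest value that 3 libraries against 3 can give, so this test cannot pass 0.05 here. Unequal assignment of reads that match both sequences cannot be told apart from unequal amounts of the 2 microRNAs.

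The 5p arms of these hairpins were rare. mmu-miR-107-5p had 36, 22 and 43 reads in the induced libraries and 20, 30 and 29 in the uninduced ones. Its log2 change was 0.10 (SE 0.26, edgeR adjusted p = 0.850), with a 95% interval of -0.47 to 0.67, wide enough to hold a change of over 1.5-fold. mmu-miR-103-2-5p had 9, 12 and 7 reads in the induced libraries and 7, 20 and 10 in the uninduced ones. mmu-miR-103-1-5p had 5, 1 and 2 reads in the induced libraries and 2, 5 and 2 in the uninduced ones. Neither passed the filter on low counts, so neither was tested.

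Only miR-103-1-5p and miR-103-2-5p can separate the Pank3 copy from the Pank2 copy, and they differ at base 1 alone (G1A). A 5p read that starts after base 1 therefore matches both, and the sources used here do not say how such reads were assigned. Reads named miR-103-1-5p were 8 of the 36 miR-103 5p reads in induced libraries together, or 22.2% (95% Clopper-Pearson interval 10.1% to 39.2%). In uninduced libraries they were 9 of 46, or 19.6% (9.36% to 33.9%). The intervals, which cover counting error only since no molecular identifiers are described, overlap. At this depth no difference in these shares was detectable. The 3p arm exceeded the 5p arms of miR-103 by 2647, 2345 and 4256 times in induced libraries and by 2687, 1044 and 2507 times in uninduced ones. The log2 ratio differed by 0.64 (SE 0.51, n = 3 per group, exact permutation p = 0.5), and was 0.20 without uninduced replicate 2, the library with the most 5p reads. For miR-107 the 3p arm exceeded the 5p arm by 314, 410 and 283 times in induced and by 422, 286 and 342 times in uninduced libraries, with overlapping groups (difference of the log2 ratio -0.06, SE 0.23, exact permutation p = 0.7).

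mmu-miR-33-5p, the arm known to act on Abca1, had 24.9, 21.4 and 30.9 CPM in the induced libraries of trials 1, 2 and 3, against 23.3, 23.2 and 34.1 CPM in the uninduced ones. Trial 3 was highest in both groups, and the groups overlapped. The log2 change was -0.06 (SE 0.21, edgeR adjusted p = 0.880), with a 95% interval of -0.53 to 0.41.

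mmu-miR-33-3p, the other arm of the same hairpin, had 6.06, 7.85 and 3.97 CPM in the induced libraries and 6.94, 8.34 and 6.23 CPM in the uninduced ones. It was lowest in trial 3 of both groups, where miR-33-5p was highest. The log2 change was -0.28 (SE 0.26, edgeR adjusted p = 0.610), with a 95% interval of -0.87 to 0.31, and it was lower in 3 of 3 trials.

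The balance of the miR-33 arms therefore varied more between trials than between groups. Induced libraries held 4.09, 2.72 and 7.73 reads of the 5p arm per read of the 3p arm in trials 1, 2 and 3, against 3.34, 2.77 and 5.44 in uninduced ones. The order of the trials was the same in both groups. The log2 ratio of 3p over 5p differed by -0.26 (SE 0.53, n = 3 per group, exact permutation p = 0.7), and by 0.15 without induced replicate 3, so the direction rested on that library. Trial 3 also had the most reads in both groups, with 13946613 in the induced and 11714847 in the uninduced library, and the part of depth in this pattern was not tested.

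**Figure D4:**
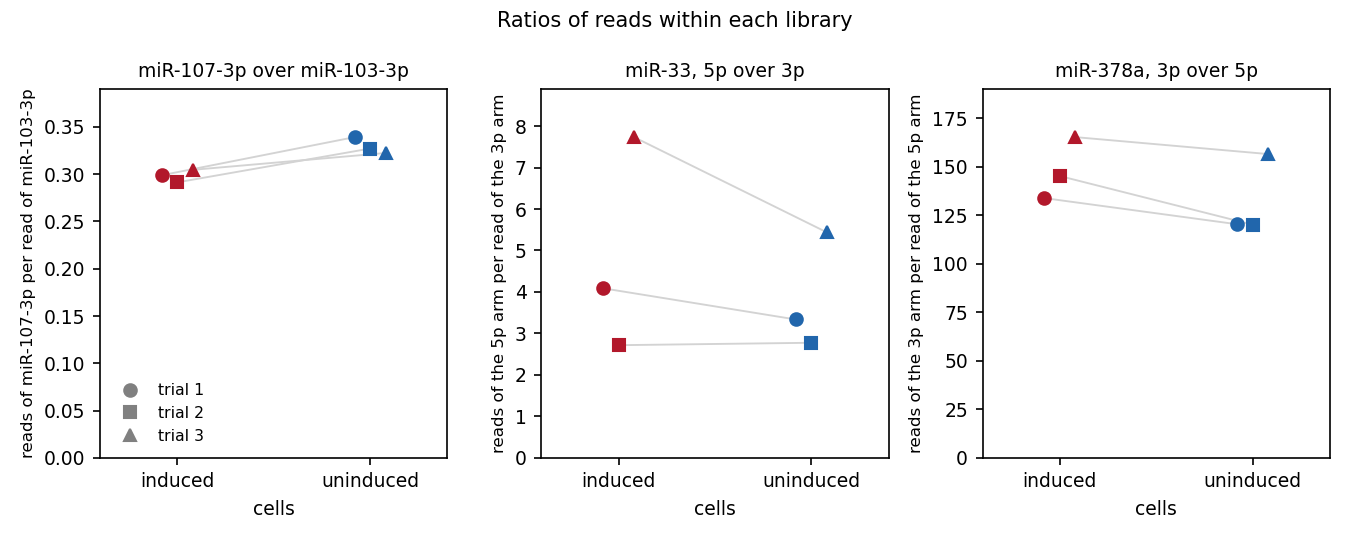
Ratios of reads within each library (vertical axes start at 0) in induced (red) and uninduced (blue) cells, with a symbol for each trial and grey lines joining the libraries of a trial. miR-107-3p per read of miR-103-3p was 0.291 to 0.305 in induced and 0.322 to 0.339 in uninduced libraries; for miR-33 the highest value is trial 3 in both groups, and for miR-378a the induced library is the higher in each trial.

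mmu-miR-378a-3p had 29466, 35685 and 28885 CPM in the induced libraries of trials 1, 2 and 3, against 37691, 36787 and 37339 CPM in the uninduced ones. In TMM-scaled CPM all induced libraries lay below all uninduced ones. The induced library of trial 2 came within 1 SD of the induced group (3769 CPM) of the lowest uninduced library. Over plain totals of the reads kept, that induced library lay above the uninduced library of trial 3, so the groups overlapped. The log2 change was -0.25 (SE 0.11, n = 3 per group, edgeR adjusted p = 0.219), with a 95% interval of -0.49 to -0.01. With the trial as a block the edgeR adjusted p was 0.0512, which does not pass. With the block and both libraries of 1 trial left out, it was 0.336 without trial 1, 0.0089 without trial 2 and 0.309 without trial 3, so the arm passed in 1 of these 3 fits.

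mmu-miR-378a-5p, which in mouse has targets of its own in energy metabolism, had 220, 246 and 175 CPM in the induced libraries of trials 1, 2 and 3, against 313, 306 and 238 CPM in the uninduced ones. It was lower in 3 of 3 trials, and trial 3 was lowest in both groups, so that the groups overlapped by the induced library of trial 2 and the uninduced library of trial 3. The log2 change was -0.42 (SE 0.17, edgeR adjusted p = 0.189), with a 95% interval of -0.80 to -0.04. With the trial as a block the log2 change was -0.42 (SE 0.09) and the edgeR adjusted p 0.0044, which passes. That call was lost without trial 1 (adjusted p = 0.0564) and without trial 3 (adjusted p = 0.105) and held without trial 2 (adjusted p = 0.0154).

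The arms of miR-378a lay lower together. Per read of the 5p arm there were 134, 145 and 165 reads of the 3p arm in the induced libraries of trials 1, 2 and 3, against 120, 120 and 157 in the uninduced ones. The induced library was higher in each trial but the groups overlapped, and the difference of the log2 ratio was 0.17 (SE 0.15, n = 3 per group, exact permutation p = 0.3). Without 1 library it ran from 0.087 (without induced replicate 3) to 0.30 (without uninduced replicate 3). In bulk RNA, fewer cells that make a microRNA and less of it per cell cannot be told apart.

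3 further entries of the table, miR-378b, miR-378c and miR-378d, carry the miR-378 name but come from other hairpins. In edgeR 0 of the 3 passed, and 0 did in DESeq2 or limma-voom. Before adjustment 1 had an edgeR p below 0.05, against 20.8% of all names. With the block 1 was lower, miR-378c, against 11.0% of all names. miR-378c had 3829, 3916 and 3715 CPM in the induced libraries and 4696, 4545 and 4702 CPM in the uninduced ones, with separate groups. Its log2 change was -0.28 (SE 0.10, edgeR adjusted p = 0.126), and that of miR-378b -0.23 (SE 0.13) and of miR-378d -0.12 (SE 0.14).

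Whether these entries share reads with miR-378a-3p was not tested, so their values are given beside it and not as separate evidence. The reads of miR-378c were 12.3% ± 1.13 of those of miR-378a-3p in induced and 12.5% ± 0.12 in uninduced libraries (SD, n = 3 each). Those of miR-378b were 1.27% ± 0.0098 in induced and 1.25% ± 0.03 in uninduced libraries (SD, n = 3 each). The share of miR-378c was lowest in the induced library of trial 2, at 11.0%, where miR-378a-3p was highest among the induced libraries.

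Since miR-378a is known from fat and muscle, the markers of these tissues were read beside it. The 3 brown fat markers, all present, summed to between 584 and 689 CPM in induced libraries and between 891 and 1430 CPM in uninduced ones. miR-193b-3p made up most of this sum. It passed downward in edgeR (adjusted p = 0.0349) and DESeq2 (adjusted p = 0.00013) but not in limma-voom (adjusted p = 0.0621). miR-365-3p was also lower, at a log2 change of -0.54 (adjusted p = 0.0629 in edgeR, 0.0196 in DESeq2 and 0.0645 in limma-voom). The muscle and brown fat microRNA miR-133a-3p had 14 reads in all. Of the 6 muscle markers 2 were at 0 in every library, and the sum ran from 0.581 to 0.785 CPM in induced and from 0.778 to 1.19 CPM in uninduced libraries. The part of these markers in the miR-378a values was not tested.

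The miR-103 and miR-107 3p arms belong with miR-15, miR-16, miR-195, miR-322, miR-497 and miR-503 to a group of microRNAs known to restrain cell cycle genes. The group shares the bases AGCAGC near the 5′ end, shown in the lines below with the motif AGCAGCA in capitals where it is complete.
miR-103-3p, from base 1: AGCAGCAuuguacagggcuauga
miR-15a-5p, from base 2: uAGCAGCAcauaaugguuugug
miR-16-5p, from base 2: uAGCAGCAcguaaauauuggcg
miR-195a-5p, from base 2: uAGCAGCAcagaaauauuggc
miR-322-5p, from base 2: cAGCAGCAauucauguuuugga

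The motif starts 1 base earlier in miR-103-3p and miR-107-3p, so their seeds are offset from those of the others. Of the 8 other members listed, 6 were tested, miR-497a-5p had 19 reads in all and miR-195b had 0. In edgeR 0 of the 6 passed in either direction, 0 did in DESeq2 or limma-voom, and 2 had an edgeR p below 0.05 before adjustment, against 6.10% of all names called by edgeR and 20.8% below 0.05 before adjustment. The log2 changes of all 6 were above 0, as were those of 274 of the 525 names tested. Those of the 6 ran from 0.10 to 0.59, with a median of 0.18 against 0.02 over all names tested. miR-322-5p came nearest, with 869 CPM ± 34.1 in induced and 636 CPM ± 49.3 in uninduced cells (SD, n = 3 each). Its log2 change was 0.45 (SE 0.12, edgeR adjusted p = 0.0559). With the block it passed (edgeR adjusted p = 0.0034), the 1 of the 6 that did, against 21.7% of all names. miR-16-5p, far more abundant at 48080 CPM ± 3935 in induced and 42763 CPM ± 1182 in uninduced cells (SD, n = 3 each), had a log2 change of 0.17 (SE 0.10). miR-503-5p, from the same cluster as miR-322, was rare and overlapped between the groups, with a log2 change of 0.59 (SE 0.25, edgeR adjusted p = 0.210). The log2 changes of miR-15a-5p (0.10, SE 0.12), miR-15b-5p (0.12, SE 0.18) and miR-195a-5p (0.19, SE 0.16) were within 1.5 SE of 0.

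A wider list of 25 microRNAs reported in the control of cholesterol, lipoproteins, fatty acids or insulin was read in the same fit. Of the 20 tested, 1 fell, miR-10b-5p, a microRNA of the Hox clusters reported to act on cholesterol efflux. It had 17.2, 18.7 and 16.2 CPM in induced libraries and 95.01, 76.2 and 71.1 CPM in uninduced ones (log2 change -2.22, SE 0.16, edgeR adjusted p = 2.4e-05). None of the 20 rose in edgeR. Without adjustment 4 of the 20 had an edgeR p below 0.05, a share close to the 20.8% of all names. DESeq2 and limma-voom each called 1 of the 20, against 7.05% and 3.81% of all names. The median log2 change was -0.08. With the block 3 were lower, miR-10b-5p, miR-27b-3p and miR-143-3p, and 1 higher, miR-185-5p, reported to act on cholesterol uptake. These 4 of 20 are again close to the share of all names called with the block, 21.7%.

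The other members of that list did not pass in either fit. miR-21a-5p, a microRNA raised in many inflammatory and proliferative states, had 17258 CPM ± 2717 in induced and 11858 CPM ± 2052 in uninduced cells (SD, n = 3 each) with separate groups. Its log2 change was 0.54 (SE 0.16, edgeR adjusted p = 0.0746). miR-223-3p, a granulocyte microRNA, had the largest SE of the list, with 5563 CPM ± 2406 in induced and 6512 CPM ± 2093 in uninduced cells (SD, n = 3 each; log2 change -0.23, SE 0.39). miR-148a-3p, the most abundant of the list and known in liver for acting on the LDL receptor, had a log2 change of -0.20 (SE 0.13). The rest lay between -0.20 for miR-155-5p and 0.25 for miR-30c-5p, namely miR-24-3p, miR-26a-5p, miR-27a-3p, miR-29a-3p, miR-34a-5p, miR-93-5p, miR-96-5p, miR-106b-5p, miR-128-3p, miR-130b-3p and miR-148b-3p. The liver microRNA miR-122-5p had 5 reads in all, and miR-144-3p, miR-302a-3p, miR-370-3p and miR-206-3p had 0.

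**Figure D5:**
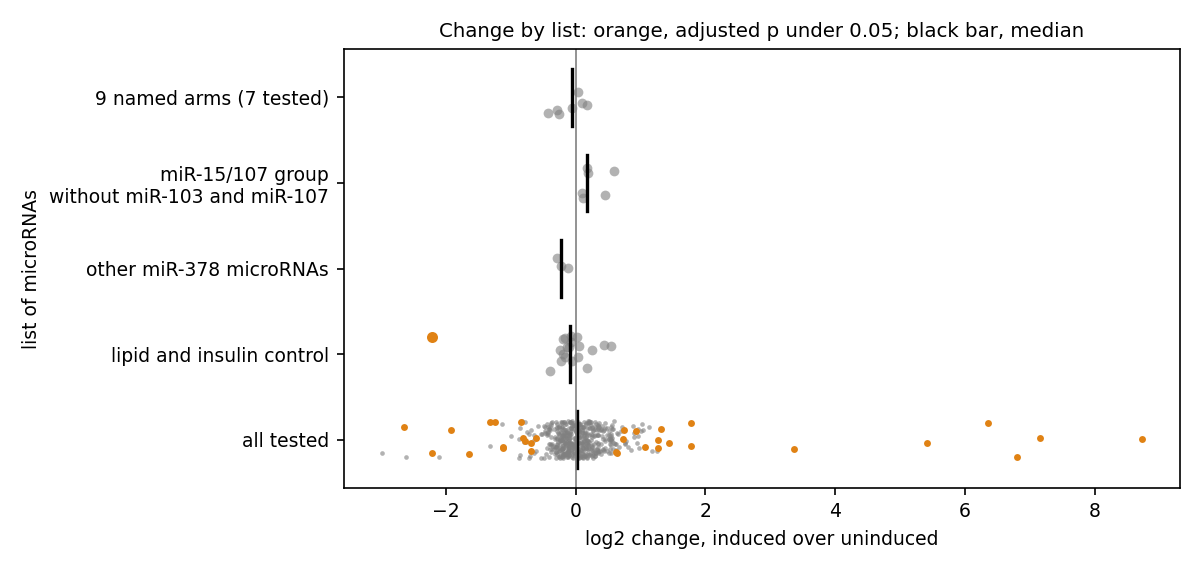
Log2 change of induced over uninduced libraries (horizontal axis) for the 7 tested arms, the 3 comparison lists and all tested microRNAs; each point is a microRNA, orange where the edgeR adjusted p was under 0.05, and the black bar is the median. In the comparison lists 1 microRNA, miR-10b-5p at -2.22, is orange. The 6 tested microRNAs grouped with miR-103 and miR-107, among them miR-15 and miR-16, lie between 0.10 and 0.59.

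The profiles most like those of the 4 leading arms were found over the 6 libraries, as the smallest root-mean-square difference of log2 CPM centred on each microRNA's own mean, among 322 other microRNAs with at least 10 CPM. miR-103-3p was nearest to miR-16-5p, with a difference of 0.05 log2 units against a median of 0.23 over all compared. miR-106b-3p (0.06) and miR-532-5p (0.06) came next. miR-107-3p was nearest to miR-26b-5p (0.03), miR-26a-5p (0.03) and miR-30a-5p (0.04), against a median of 0.21. Neither miR-103-3p nor miR-107-3p was thus among the 3 nearest to the other.

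miR-33-5p was nearest to miR-466d-5p and miR-466n-5p, which had equal values and stand for 1 measurement (0.07), and to miR-421-3p (0.08), against a median of 0.30. miR-378a-3p was nearest to miR-378b (0.02), miR-181a-5p (0.06) and miR-378c (0.08), against a median of 0.26, and whether the miR-378 entries share its reads was not tested. A flat profile is near to other flat profiles by this measure, and none of these neighbours passed the edgeR test (adjusted p from 0.126 to 0.970).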

How the data were processed

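The deposited table gives raw counts for each library in 2061 entries of 1915 mature names, beside CPM values that the authors derived, equal to those counts over the sum of all entries within 0.005. The tools named per the submitters' processing notes are Trim Galore 0.4.0 and a DESeq2 listed as 2.1.8.0, with mm10, and the series' text states alignment to miRBase. The sources used here name no counter and no rule for reads with several matches. Of several entries of a name, that with the most reads in all was used, leaving 8697384 to 13946613 reads per library. The groups were compared in edgeR 4.0.16 under R 4.3.3 (TMM factors, filterByExpr by group, robust quasi-likelihood fit on the group alone, two-sided, Benjamini-Hochberg at 0.05 over the 525 names kept), after the procedure was tested on simulated data. CPM in the text is TMM-scaled, and an SE is the log2 change over the root of the F statistic. DESeq2 1.42.0 and limma 3.58.1 were alternatives. Ratios within a library had 0.5 reads added to each count and were tested by exact permutation. Log2 CPM for profiles used a prior count of 2. Sequences and positions are from RefSeq GRCm38.p6, of which none was used for miR-378a. Introns are from GENCODE M21, as is the position of miR-378a. The named microRNAs are all 9 arms, the 3 nearest profiles of each leading arm, and the tested members of 3 lists. The members and lists were chosen with earlier results of these data known.

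The main fit and the permutation tests took the libraries as unpaired, and the trial entered as a block in an alternative only. The trial numbers did pair the libraries: with each group centred on its mean, the induced and the uninduced library had a correlation of their log2 CPM across microRNAs of 0.33 in trial 1, 0.45 in trial 2 and 0.53 in trial 3. Replicates differed by far more than sampling noise (chi-square over its degrees of freedom at least 115 for any pair of a group), so none was counted as a duplicate. Alternatives covered the entry kept per name, scaling, filter, test, the trial block and leaving out each library or trial.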

Additional observations from a re-analysis of the deposited data

How the results depend on the processing

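With the group alone, 0 of the 7 tested arms passed under any other choice of entry, scaling, filter or test, or without any 1 library. The replicate block, which pairs libraries by trial, called 1 (miR-378a-5p, log2 change -0.42), and 0 to 2 with both libraries of a trial left out; miR-378a-3p then passed without trial 2 at -0.37, beside miR-378a-5p at -0.48. The block changed no other call among the arms. Over all names, 32 were called with the group alone, 20 by limma-voom, 114 with the replicate block, 12 to 41 without 1 library, and 66, 60 and 12 with the block without trials 1, 2 and 3. Both miR-378a arms stayed below 0 and miR-103-3p above 0 in each of 22 alternatives, and miR-33-3p stayed below 0, but without 1 library miR-33-3p ran from -0.53 to -0.085 and miR-103-3p from 0.099 to 0.22. Without 1 library the log2 change ran from -0.028 to 0.069 for miR-107-3p, from -0.060 to 0.28 for miR-107-5p (-0.059 to 0.35 with the replicate block and without 1 trial) and from -0.25 to 0.15 for miR-33-5p, so none of the 3 kept its direction. The same holds for the 3p over 5p difference of miR-107 (-0.21 to 0.085) and miR-33 (-0.61 to 0.15), and for miR-103-1-5p over miR-103-2-5p (0.04; -0.037 with no read added, -0.47 to 0.66 without 1 library), which rests on 82 reads. The difference of miR-107-3p over miR-103-3p ran from -0.16 to -0.12 without 1 library. The cause of these shifts was not tested. The scalings tried moved the median over all names by less than 0.1 on the log2 scale. Depth limits the miR-103 5p arms.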
